A study of Mus musculus with 2 samples.

Results

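The 10 genes here encode endothelial receptors, among them those for vascular endothelial growth factor (VEGF) and angiopoietins, and a pair of secreted growth factors. They are the VEGF receptor genes Kdr, Flt1 and Flt4, the neuropilin genes Nrp1 and Nrp2, the TIE receptor genes Tek and Tie1, the roundabout receptor gene Robo4, and the ligand genes Pdgfb and Vegfa. They were taken by name, and all 10 were found among the 27998 genes of both count tables. The study compared the inner lining of the aorta between 1 old mouse (18 months) and 1 young mouse (8 weeks), both of strain C57BL6/J and with no other treatment in the labels. In both animals the aorta was cleared of adventitia and its lining was loosened with trypsin and scraped off, so each library is a scraped surface of 1 animal and can hold cells of other layers. Transcripts were counted by droplet single-cell sequencing, which tags the 3′ end of each RNA molecule with a unique molecular identifier (UMI).

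VEGF-A binds the tyrosine kinases KDR (VEGFR2), which carries most of its mitogenic signal, and FLT1 (VEGFR1), which binds it tightly and signals weakly. FLT4 (VEGFR3) binds VEGF-C and VEGF-D and is best known from lymphatic vessels, and neuropilins are co-receptors shared with class 3 semaphorins. TEK (TIE2) is the angiopoietin receptor that keeps endothelium quiescent, TIE1 is its partner with no well-established angiopoietin of its own, and ROBO4 is an endothelial receptor that stabilises vessels. PDGFB is released by endothelial cells and recruits pericytes and smooth muscle cells.

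The old library held 19171045 UMIs in 3408 barcodes (median 4737 per barcode) and the young library 12576023 UMIs in 1366 barcodes (median 7558.5). The libraries shared 11 barcodes. After filters, 3330 old and 1359 young cells were clustered together with the 10 genes left out, so that their levels did not define the clusters. By fixed markers, 2430 old and 1096 young cells were endothelial cell-like (EC-like), with summed levels of the 9 endothelial markers between 8889 and 9509 CPM (counts of a gene per 1000000 UMIs of the class) in every subtype and library. The others were fibroblast-like (576 old, 240 young), monocyte or macrophage-like (149 old, 11 young), T, NK or B-like (117 old, 10 young), erythroid-like (39 old, 1 young), smooth muscle-like (12 old, 0 young) and lymphatic endothelial-like (7 old, 1 young). EC-like clusters fell into subtype A, with more cells carrying Coch, Sost and Adra2a, and subtype B, with more cells carrying Bcan, Isl1 and Frzb. Subtype A made up 19.96% of old EC-like cells (485 cells, exact 95% interval 18.4 to 21.6%) and 41.7% of young EC-like cells (457 cells, 38.8 to 44.7%). Within each subtype the ages lay in different clusters. Old subtype A cells were in cluster 6 (484 cells) and young ones in cluster 1 (440 cells), while old subtype B cells were in clusters 5 and 3 (1409 and 521 cells) and young ones in cluster 0 (590 cells).

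All levels below are UMIs summed over the cells of a class and library, in CPM of that class total, with exact 95% Poisson intervals. Ratios carry exact conditional binomial 95% intervals. With 1 library per age there is no replicate check and no test, and all intervals cover counting error only. Levels are compared within a gene, since a 3′ count was not scaled by length. EC-like cells were shallower in the old library, with a median of 5051.5 UMIs against 7381.5 in the young library. Markers of other classes differed too. The 6 erythroid markers summed to 560 CPM in old and 25.3 CPM in young EC-like cells, with 1 of 6 at 0 in each. The 8 macrophage markers summed to 107 and 28.5 CPM, with 0 and 2 at 0. The 7 fibroblast markers stood at 350 and 360 CPM with 0 at 0, the 7 smooth muscle markers at 413 and 352 CPM with 0 and 2 at 0, and the 6 lymphatic markers at 19.2 and 6.49 CPM with 0 and 1 at 0. The 4 platelet markers summed to 41.2 CPM in old and 5.60 CPM in young EC-like cells with 0 and 1 at 0, and the 8 T, NK or B markers to 11.1 and 2.06 CPM with 0 and 2 at 0. The part of these markers in the differences between ages was not tested.

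Most UMIs of most of these genes were in EC-like cells, which also held most UMIs of each library. EC-like cells held between 88.2% and 100% of the UMIs of Flt1, Flt4, Nrp1, Tek, Tie1, Robo4, Pdgfb and Vegfa in either library. Over all genes they held 14556027 of the 19171045 UMIs of the old library and 10170050 of the 12576023 of the young library. The shares of single genes are to be read beside that. Kdr and Nrp2 had lower shares. For Kdr, 72.1% of the 86 old and 84.6% of the 39 young UMIs were in EC-like cells. Macrophage-like cells held 67.7% of the 96 old and 40.7% of the 27 young Nrp2 UMIs, more than any other class in either library.

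**Figure D1:**
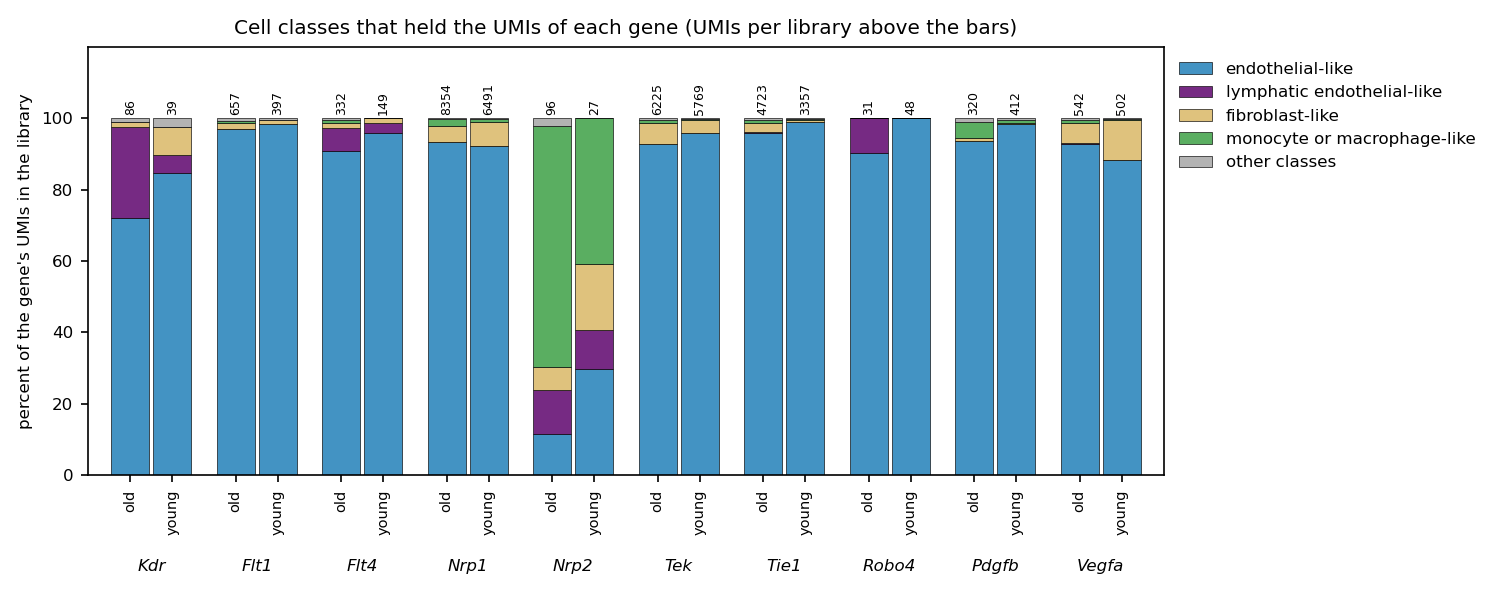
Percent of each gene's UMIs (vertical axis) held by each cell class, with a bar for the old library left of the bar for the young library and the gene's UMIs per library written above. EC-like cells held between 88.2% and 100% of the UMIs of 8 genes. Lymphatic endothelial-like cells held 25.6% of old Kdr UMIs, and macrophage-like cells held 67.7% of old and 40.7% of young Nrp2 UMIs.

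Kdr was scarce in the aortic lining. EC-like cells held 62 Kdr UMIs in the old library, or 4.26 CPM (3.27 to 5.46), and 33 in the young library, or 3.24 CPM (2.23 to 4.56). The log2 ratio of old over young was 0.39, and its interval (-0.24 to 1.05) held 0. At 3100 UMIs per cell, 1.07% of old and 1.31% of young EC-like cells carried a Kdr UMI. None of the 25 old or 8 young T, NK or B-like cells of that depth did. The exact intervals of these empty shares reached 13.7% in old and 36.9% in young cells, above both EC-like shares. So few cells cannot show whether Kdr was more frequent in EC-like cells than in T, NK or B-like cells. A large share of the old Kdr UMIs came from very few cells. The 7 old lymphatic endothelial-like cells held 22 of 86 Kdr UMIs, and 1 of them, with 14954 UMIs in all, held 14. The same cell held 12 Flt4 and 6 Nrp2 UMIs and all 6 lymphatic markers, among them Prox1, the transcription factor that sets lymphatic identity. Whether that cell is a doublet was not tested. The young lymphatic endothelial-like cell held 2 Kdr, 4 Flt4 and 3 Nrp2 UMIs. None of these 8 cells held a UMI of Flt1 or Pdgfb. When they were joined to the EC-like class the log2 ratio of old over young was 0.74 for Kdr and 0.54 for Nrp2, against 0.39 and -0.06 without them.

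Flt4 was modestly higher in old than in young EC-like cells, and Flt1 only slightly so. Flt1 stood at 43.8 CPM (40.4 to 47.3) in old and 38.4 CPM (34.7 to 42.5) in young EC-like cells, with a log2 ratio of 0.19 (0.0029 to 0.37). Its interval held the median log2 ratio of all genes, 0.06. For this gene 1 young cell mattered, a subtype A cell with 20090 UMIs that held 28 Flt1 UMIs, where the next young EC-like cell held 6. Without it the log2 ratio was 0.29. Flt4 stood at 20.7 CPM (18.5 to 23.2) in old and 14.1 CPM (11.9 to 16.6) in young EC-like cells, with a log2 ratio of 0.56 (0.27 to 0.86). Flt4 UMIs were spread thinly, at no more than 2 per EC-like cell in either library. Joining the lymphatic endothelial-like cells moved its log2 ratio to 0.62.

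The TIE receptors moved unequally. Tek stood at 397 CPM (387 to 408) in old and 544 CPM (530 to 558) in young EC-like cells, with a log2 ratio of -0.45 (-0.51 to -0.40). Tie1 stood at 312 CPM (303 to 321) in old and 326 CPM (315 to 338) in young EC-like cells, with a log2 ratio of -0.07 (-0.13 to -0.0024). The interval of Tek lay wholly below that of Tie1. The phosphatase gene Ptprb, whose product removes phosphate from TEK at endothelial junctions, stood at 2159 CPM in old and 2538 CPM in young EC-like cells, with a log2 ratio of -0.23 (-0.26 to -0.21). Angpt1, the agonist of TEK that is usually credited to mural cells, was seen in EC-like cells at 15.3 CPM (223 UMIs) in old and 10.4 CPM (106 UMIs) in young cells. With 12 old and 0 young smooth muscle-like cells, its level in mural cells could not be compared. In fibroblast-like cells Angpt1 had 7 UMIs in old and 0 in young cells.

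Nrp1 was close between the ages. It stood at 535 CPM (523 to 547) in old and 589 CPM (575 to 604) in young EC-like cells, with a log2 ratio of -0.14 (-0.19 to -0.09). Nrp2 was nearly absent from aortic endothelium, with 11 UMIs in old and 8 UMIs in young EC-like cells. Its EC-like level was 0.848% of its macrophage-like level in the old library and 1.03% in the young library. The macrophage markers, which endothelial cells should lack, stood at 0.494 to 0.970% of their macrophage-like level in old EC-like cells (median 0.632%, 8 markers) and at 0 to 0.848% in young EC-like cells (median 0.372%, 7 markers). Nrp2 lay within the range of the markers in the old library and above the highest of them in the young library, where it rests on 8 UMIs. Most of these came from 2 young cells with 3 Nrp2 UMIs each. The part of macrophage RNA in these counts was not tested.

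Robo4 and Pdgfb were lower in the old EC-like class. Robo4 had 28 UMIs in old and 48 UMIs in young EC-like cells, or 1.92 CPM (1.28 to 2.78) and 4.72 CPM (3.48 to 6.26), with a log2 ratio of -1.29 (-2.02 to -0.59). Pdgfb stood at 20.6 CPM (18.3 to 23.1) in old and 39.8 CPM (36.04 to 43.9) in young EC-like cells, with a log2 ratio of -0.95 (-1.17 to -0.73). Vegfa, the ligand of KDR and FLT1, stood at 34.6 CPM (31.6 to 37.7) in old and 43.6 CPM (39.6 to 47.8) in young EC-like cells, with a log2 ratio of -0.33 (-0.52 to -0.15). Of the 7 genes with at least 100 UMIs in EC-like cells, 0 were at least 1.5-fold higher in old cells, where 5.13% of all 10067 genes with that many UMIs were. By the same measure 1 gene, Pdgfb, was at least 1.5-fold lower, where 4.96% of all genes were. The median log2 ratio was -0.14 over the 7 genes and 0.06 over all genes. Kdr, Nrp2 and Robo4 held under 100 UMIs and are not in these counts. With a minimum of 20 UMIs in place of 100, 0 were that much higher, where 9.21% of 12096 genes were, and 2 (Robo4 and Pdgfb) were that much lower, where 7.18% were. At 2-fold and 100 UMIs 0 were higher, where 1.33% of all genes were, and 0 lower, where 1.94% were.

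Several of the genes differed between subtypes A and B in both libraries, and the shares of the subtypes differed between the libraries. Robo4 was higher in subtype A. It stood at 5.78 CPM (18 UMIs) in subtype A and 0.874 CPM (10 UMIs) in subtype B of the old library, with a log2 ratio of A over B of 2.73 (1.53 to 4.0). In the young library it stood at 8.65 CPM (43 UMIs) in subtype A and 0.962 CPM (5 UMIs) in subtype B, with a log2 ratio of 3.17 (1.83 to 4.86). Pdgfb showed the same order with more counts. It stood at 37.6 CPM in subtype A and 15.99 CPM in subtype B of the old library (log2 1.23, 0.88 to 1.57), and at 55.9 and 24.4 CPM in those of the young library (log2 1.19, 0.89 to 1.51). Flt1 stood at 67.4 CPM in subtype A and 37.3 CPM in subtype B of the old library (log2 0.85, 0.61 to 1.10), and at 48.9 and 28.5 CPM in those of the young library (log2 0.78, 0.48 to 1.08). The receptor for VEGF-A that signals weakly and the ligand for mural cells were thus both higher in the Coch, Sost and Adra2a subtype.

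Vegfa and Kdr ran the other way. Vegfa stood at 14.8 CPM in subtype A and 39.9 CPM in subtype B of the old library (log2 -1.44, -1.91 to -0.996), and at 12.3 and 73.5 CPM in those of the young library (log2 -2.58, -3.00 to -2.19). Kdr had 6 UMIs in subtype A and 56 UMIs in subtype B of the old library, or 1.93 and 4.89 CPM (log2 -1.35, -2.85 to -0.13). In the young library it had 10 UMIs in subtype A and 23 UMIs in subtype B, or 2.01 and 4.43 CPM (log2 -1.14, -2.37 to -0.01). VEGF-A and its main receptor were thus higher in the same subtype, although Kdr rests on few counts.

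Nrp1, Tek, Tie1 and Flt4 differed little between subtypes. Nrp1 was lower in subtype A in both libraries, with a log2 ratio of A over B of -0.49 (-0.58 to -0.40) in the old and -0.22 (-0.29 to -0.15) in the young library. For Tek the ratio was 0.15 (0.06 to 0.23) in the old and -0.08 (-0.15 to -0.0012) in the young library, and for Tie1 -0.06 (-0.16 to 0.05) and -0.25 (-0.35 to -0.15). Both intervals of Flt4 held 0. Of the 7 genes with at least 100 UMIs, 2 (Flt1 and Pdgfb) were at least 1.5-fold higher in subtype A and 1 (Vegfa) at least 1.5-fold lower, in the old library and in the young library alike. Over all genes with that many UMIs, 2.78% were that much higher and 4.31% that much lower in subtype A of the old library, and 3.04% and 3.81% in subtype A of the young library.

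**Figure D2:**
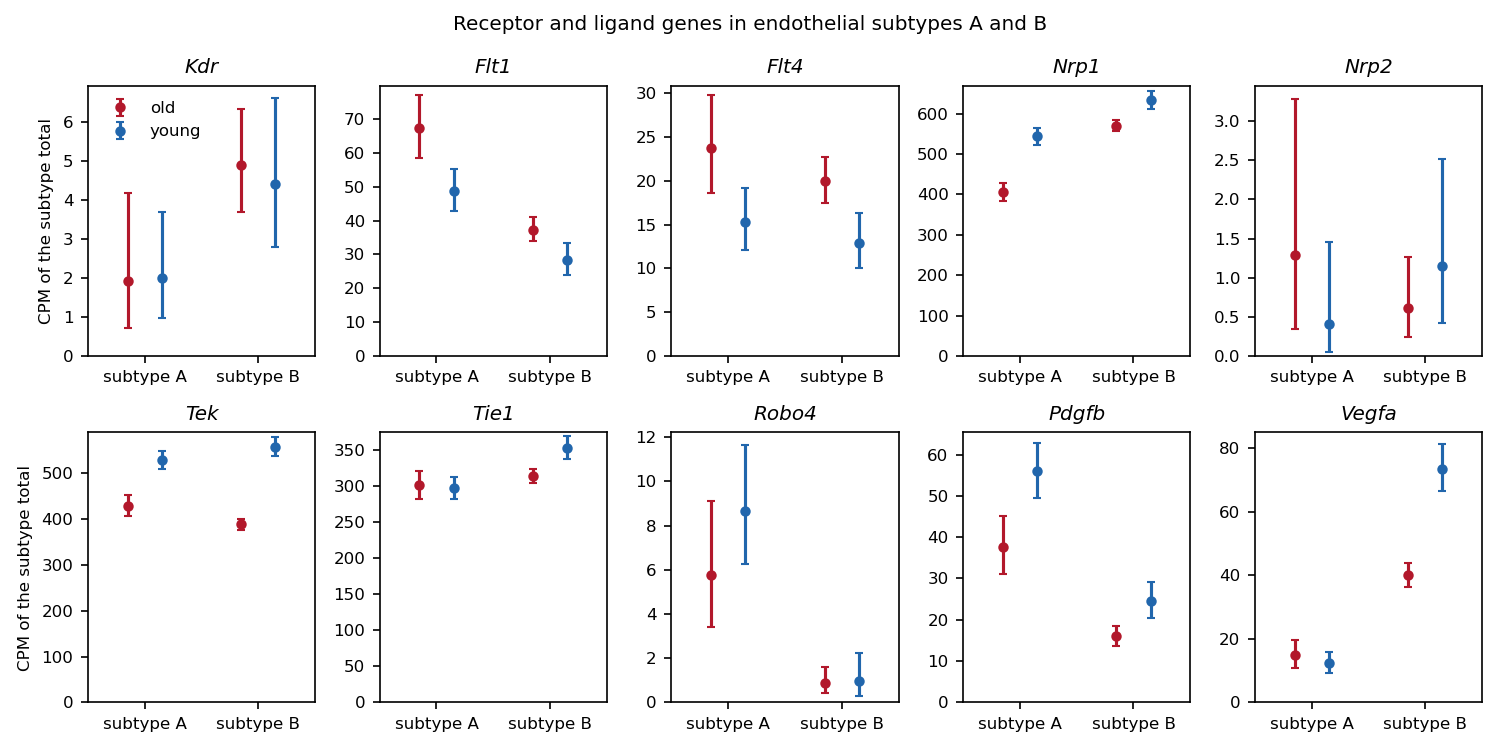
Level of each gene in CPM of the subtype total (vertical axes from 0, each gene on its own scale) in subtypes A and B, with the old library in red to the left of the young library in blue. Points are sums over the cells of 1 library and bars exact 95% Poisson intervals. Robo4, Pdgfb and Flt1 stood higher in subtype A and Vegfa and Kdr higher in subtype B in both libraries.

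The depth of some of these values is small once cells with foreign RNA are set aside. Only 173 of 2430 old and 804 of 1096 young EC-like cells held no UMI of a macrophage, lymphocyte or erythroid marker. Of these, the 28 old subtype A cells held 3 Flt1, 1 Pdgfb, 0 Vegfa, 0 Kdr and 0 Robo4 UMIs, and the 145 old subtype B cells held 19, 6, 16, 2 and 0. The log2 ratio of A over B among them was -0.13 for Flt1 and -0.053 for Pdgfb, while Vegfa and Kdr were seen in subtype B alone. Among the 804 young cells Robo4 kept its order, with 27 Robo4 UMIs in 320 subtype A cells and 3 in 484 subtype B cells.

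Within a subtype the ratios between ages were not those of the pooled class. Robo4 stood at 5.78 CPM in old and 8.65 CPM in young subtype A cells, with a log2 ratio of -0.58 whose interval (-1.46 to 0.24) held both 0 and the pooled value of -1.29. In subtype B it stood at 0.874 CPM (10 UMIs) in old and 0.962 CPM (5 UMIs) in young cells. Pdgfb was lower in old cells of both subtypes. It stood at 37.6 CPM in old and 55.9 CPM in young subtype A cells (log2 -0.57, -0.90 to -0.26), and at 15.99 CPM in old and 24.4 CPM in young subtype B cells (log2 -0.61, -0.95 to -0.27). Both values lie closer to 0 than the pooled log2 ratio of -0.95.

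Vegfa was lower in old cells of subtype B. It stood at 39.9 CPM (36.4 to 43.8) in old and 73.5 CPM (66.3 to 81.3) in young subtype B cells, with a log2 ratio of -0.88 (-1.08 to -0.68). In subtype A it stood at 14.8 CPM (10.8 to 19.7) in old and 12.3 CPM (9.38 to 15.8) in young cells, with a log2 ratio of 0.27 (-0.32 to 0.84). The 2 intervals do not overlap, although no test of the difference was made. The pooled log2 ratio of -0.33 lies between them, and old EC-like cells held the larger share of subtype B, where Vegfa stood higher.

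Both VEGF receptors with enough counts were higher in old cells of each subtype. Flt4 stood at 23.8 CPM in old and 15.3 CPM in young subtype A cells (log2 0.64, 0.15 to 1.12), and at 19.9 CPM in old and 12.9 CPM in young subtype B cells (log2 0.63, 0.23 to 1.04). Flt1 stood at 67.4 CPM in old and 48.9 CPM in young subtype A cells (log2 0.46, 0.19 to 0.74), and at 37.3 CPM in old and 28.5 CPM in young subtype B cells (log2 0.39, 0.12 to 0.67). Tek was lower in old cells of each subtype. It stood at 430 CPM in old and 529 CPM in young subtype A cells (log2 -0.30, -0.40 to -0.20), and at 388 CPM in old and 558 CPM in young subtype B cells (log2 -0.52, -0.59 to -0.45).

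Nrp1 stood at 406 CPM in old and 544 CPM in young subtype A cells (log2 -0.42, -0.52 to -0.32), and at 570 CPM in old and 633 CPM in young subtype B cells (log2 -0.15, -0.21 to -0.09). Tie1 stood at 302 CPM in old and 298 CPM in young subtype A cells (log2 0.02, -0.10 to 0.14), and at 314 CPM in old and 354 CPM in young subtype B cells (log2 -0.17, -0.25 to -0.09). Among the 7 genes with at least 100 UMIs in subtype A, 1 (Flt4) was at least 1.5-fold higher in old cells, where 4.55% of all genes were, and 0 were that much lower, where 5.11% of all genes were. Without the young cell with 28 Flt1 UMIs, Flt1 stood at 43.4 CPM in young subtype A cells, its log2 ratio was 0.64, and 2 of 7 (Flt1 and Flt4) were that much higher. In subtype B 1 of 7 (Flt4) was higher, where 5.01% of all genes were, and 2 of 7 (Pdgfb and Vegfa) were lower, where 4.61% of all genes were.

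**Figure D3:**
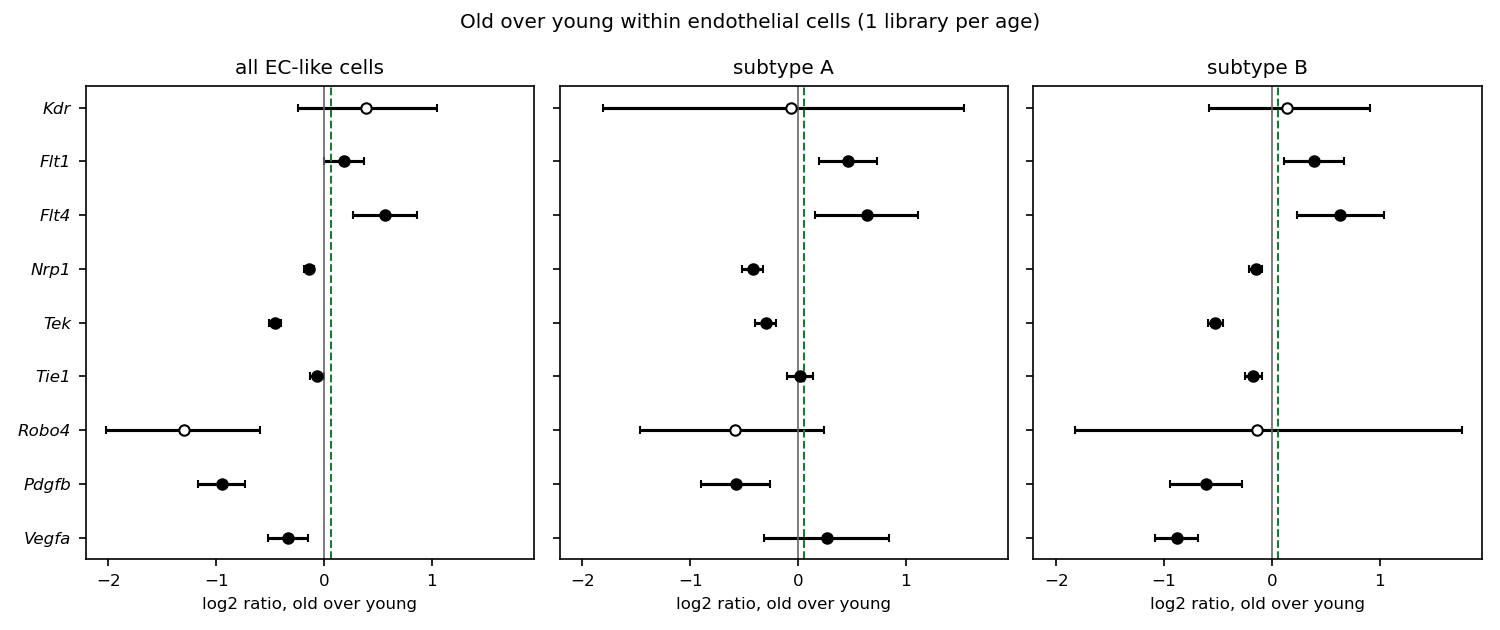
Log2 ratio of old over young (horizontal axis) of 9 genes in all EC-like cells and in subtypes A and B, with exact 95% intervals for counting error between 1 library per age. Filled points have at least 100 UMIs in both libraries together and open points fewer, the grey line is a ratio of 1, and the dashed green line is the median of all genes. Nrp2, with 19 UMIs in EC-like cells, is left out. Flt1 and Flt4 lay above 0 and Tek, Nrp1 and Pdgfb below 0 in all 3 panels, while Vegfa lay below 0 in subtype B and its interval held 0 in subtype A.

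The old subtype B cells were themselves uneven. In cluster 3 (521 old cells, median 6585 UMIs) Flt1 stood at 51.7 CPM, Nrp1 at 435 CPM and Kdr at 6.11 CPM. In cluster 5 (1409 old cells, median 4263 UMIs) Flt1 stood at 30.7 CPM, Nrp1 at 633 CPM and Kdr at 4.37 CPM. The gap of Nrp1 between these clusters of 1 animal was larger than its gap between the ages in the pooled class.

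The start sites of some of these genes are shown because the genes differ between subtypes: Robo4 and Flt1 were higher in subtype A, Vegfa was higher in subtype B, and Tie1 was nearly level. The windows run from 250 bases before to 50 bases after a RefSeq start site on GRCm38.p6, read 5′ to 3′ on the strand of the gene. These start sites can differ from the gene starts of the GENCODE annotation given below. Most of the Tie1 window and more than 50 bases of the Robo4 window lie inside the GENCODE spans of these genes. Capitals mark GGAA, the core letters that ETS transcription factors of endothelium recognise, or TTCC, the same letters on the other strand.
Robo4, chr9:37401722-37402021, plus strand: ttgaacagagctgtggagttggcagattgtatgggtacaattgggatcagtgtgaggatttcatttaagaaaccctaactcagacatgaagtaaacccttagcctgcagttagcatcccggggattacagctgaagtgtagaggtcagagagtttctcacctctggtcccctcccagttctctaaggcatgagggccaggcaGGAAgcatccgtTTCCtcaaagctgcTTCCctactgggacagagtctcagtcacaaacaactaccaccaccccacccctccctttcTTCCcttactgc
Flt1, chr5:147725962-147726261, minus strand: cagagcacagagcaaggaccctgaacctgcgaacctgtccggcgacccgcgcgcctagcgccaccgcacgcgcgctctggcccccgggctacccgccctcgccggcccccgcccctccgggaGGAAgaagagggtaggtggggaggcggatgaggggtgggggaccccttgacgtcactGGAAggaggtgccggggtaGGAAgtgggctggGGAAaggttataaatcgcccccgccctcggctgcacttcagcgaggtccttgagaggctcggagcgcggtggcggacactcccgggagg
Vegfa, chr17:46032328-46032627, minus strand: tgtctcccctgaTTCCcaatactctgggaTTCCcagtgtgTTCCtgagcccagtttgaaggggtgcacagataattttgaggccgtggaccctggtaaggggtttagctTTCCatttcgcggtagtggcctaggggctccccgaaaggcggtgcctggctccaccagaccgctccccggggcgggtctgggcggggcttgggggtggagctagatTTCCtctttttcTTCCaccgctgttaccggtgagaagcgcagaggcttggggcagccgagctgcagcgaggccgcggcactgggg
Tie1, chr4:118489800-118490099, minus strand: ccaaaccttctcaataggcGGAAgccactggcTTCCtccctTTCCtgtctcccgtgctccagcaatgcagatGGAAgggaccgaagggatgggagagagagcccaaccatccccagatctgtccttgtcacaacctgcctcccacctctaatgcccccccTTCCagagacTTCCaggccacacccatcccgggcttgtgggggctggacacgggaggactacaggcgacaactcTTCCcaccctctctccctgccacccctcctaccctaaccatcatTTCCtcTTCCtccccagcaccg

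The core letters stood 4 times in the Robo4 window, 4 times in that of Flt1, 6 times in that of Vegfa and 9 times in that of Tie1. They are common, being present in 96.0% of 32851 mouse windows of the same length, with a median of 3 per window. Only the Tie1 window stands out, since 99.4% of windows held fewer matches or as many, and most of it lies inside the GENCODE span of Tie1. The other letters searched on both strands were GGGCGG (SP1), GATA, TGTTT (FOX) and ACGTG (HIF), which stood in 35.7%, 57.9%, 50.5% and 19.6% of all windows. Matches of different motifs may overlap. Of these letters the Robo4 window held only 1 FOX match, the Flt1 window 3 SP1 matches, the Vegfa window 2 SP1 matches and 1 GATA match, and the Tie1 window none. A match of letters is a description of the window and not a binding site.

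In the GENCODE vM21 annotation of GRCm38, Kdr spans 75932827 to 75978458 and Flt1 147561604 to 147726011 on the minus strand of chromosome 5. Flt4 spans 49609263 to 49652739 on chromosome 11 and Robo4 37401897 to 37415115 on chromosome 9, both on the plus strand. Nrp1 spans 128358604 to 128503363 on chromosome 8, Nrp2 62703285 to 62818695 on chromosome 1 and Tek 94739289 to 94874976 on chromosome 4, all on the plus strand. Tie1 spans 118471191 to 118490061 on chromosome 4, Pdgfb 79995874 to 80014977 on chromosome 15 and Vegfa 46016993 to 46032369 on chromosome 17, all on the minus strand. Since reads lie near the 3′ ends, stretches of 50 bases from the last 500 bases of each transcript were searched in the transcripts of other genes. None was shared for 9 of the genes, and 0.665% were shared for Tie1. Pdgfb overlaps Gm41361 on the opposite strand and Nrp1 holds Mir1903 on its own strand, and reads of such pairs may not be told apart.

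In fibroblast-like cells Tek and Nrp1 stood above the median of the endothelial markers, and above the highest marker for Tek in the old library and Nrp1 in the young library. The 9 endothelial markers stood in old fibroblast-like cells at 9.20 to 25.1% of their EC-like level (median 11.6%), and in young ones at 3.18 to 24.6% (median 4.17%), with Eng and Ecscr at the high end in both. Tek stood at 118 CPM (107 to 131) in old and 102 CPM (88.6 to 117) in young fibroblast-like cells, which is 29.8% and 18.7% of its EC-like level. Nrp1 stood at 127 CPM (114 to 140) in old and 211 CPM (192 to 232) in young fibroblast-like cells, or 23.7% and 35.9% of its EC-like level. Tie1, which is best known from endothelium, stood at 38.6 CPM in old and 9.65 CPM in young fibroblast-like cells, or 12.4% and 2.96%. The old value is next to the marker median, and the young value is below the lowest marker (Esam, 3.18%). In old T, NK or B-like cells, which should lack these receptors, Tek stood at 9.93% of its EC-like level (12 UMIs). The markers stood there at 0 to 13.4% (median 10.6%). The other genes lay between 0 and 30.1% (Flt1, 4 UMIs), with Nrp1 at 4.30% (7 UMIs) and Tie1 at 12.7% (12 UMIs). In young T, NK or B-like cells Tek had 0 UMIs, where the markers had a median of 4.50%.

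Vegfa in fibroblast-like cells had 31 UMIs in old and 56 UMIs in young cells, or 10.1 CPM (6.89 to 14.4) and 27.0 CPM (20.4 to 35.1), with a log2 ratio of -1.41 (-2.10 to -0.76). It was 29.4% of its EC-like level in old and 62.0% in young cells. At a finer clustering the young Vegfa UMIs were uneven. A cluster led by Igfbp5, Dpt and Igfbp6 with Sema3c and Dact2 held 23 UMIs in 28 young cells (73.9 CPM), and a cluster led by Col1a1, Clec3b and Dpt held 33 UMIs in 202 young cells (19.7 CPM). In the old library these clusters stood at 7.63 CPM (7 UMIs) and 4.13 CPM (1 UMI). Another cluster, led by Igfbp5, Col1a1 and Ccl11, had under 20 young cells. Its 331 old cells held Vegfa at 12.1 CPM (23 UMIs) and Tek at 119 CPM (225 UMIs). In the other clusters, in the same order, Tek stood at 135 CPM (124 UMIs) and 53.8 CPM (13 UMIs) in the old and 99.6 CPM (31 UMIs) and 102 CPM (171 UMIs) in the young library. In the old cells of the Col1a1 cluster Tek was at 13.5% of its EC-like level, next to the endothelial marker median of 13.3%, and in the old cells of the other clusters at 34.0% and 29.8%, against marker medians of 10.3% and 11.1%. In the young library Tek was at 18.3% and 18.8%, against marker medians of 3.504% and 3.87%.

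Of the 3 genes with at least 100 UMIs in fibroblast-like cells, 1 (Tie1) was at least 1.5-fold higher in old cells, where 4.59% of all genes were, and 1 (Nrp1) was at least 1.5-fold lower, where 10.2% of all genes were. The log2 ratio was 2.0 (1.31 to 2.76) for Tie1, -0.74 (-0.94 to -0.54) for Nrp1 and 0.22 (-0.03 to 0.47) for Tek. The endothelial markers summed to 1085 CPM in old and 596 CPM in young fibroblast-like cells, where Tie1 stood at 38.6 and 9.65 CPM. The part of this endothelial RNA in the Tie1 ratio was not tested.

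**Figure D4:**
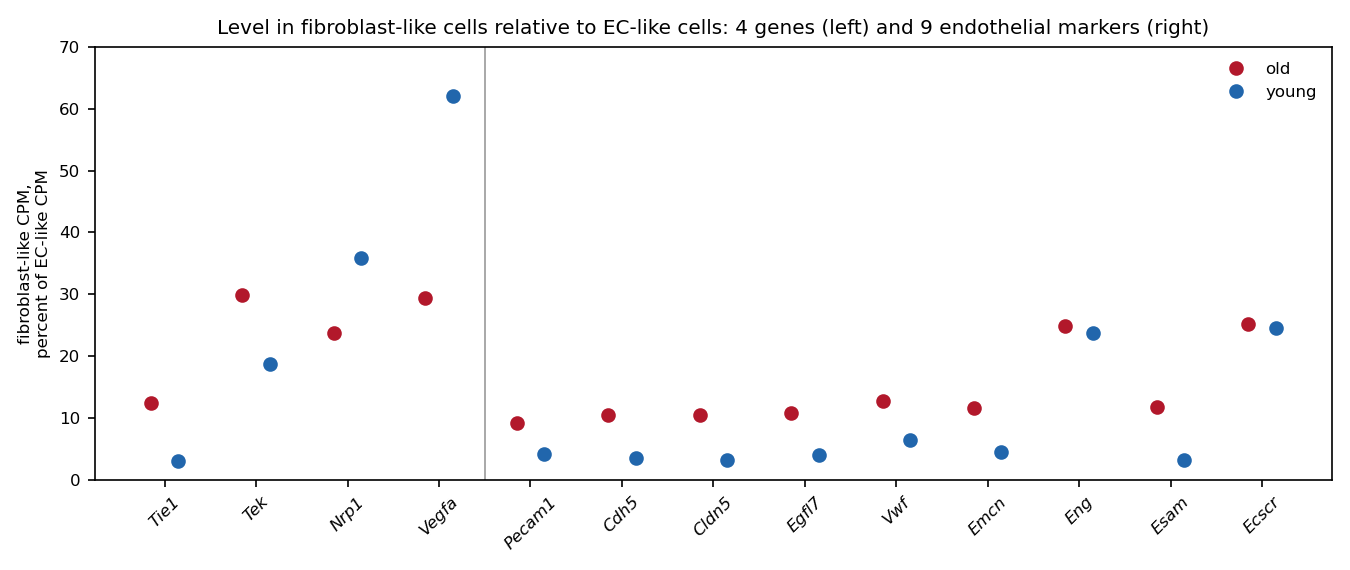
Level in fibroblast-like cells as a percent of the level in EC-like cells (vertical axis), in the old library (red, left) and the young library (blue, right), for 4 genes left of the grey line and 9 endothelial markers right of it. Tek, Nrp1 and Vegfa stand above the marker medians of 11.6% (old) and 4.17% (young). Tie1 stands near the median in the old library and below all 9 markers in the young library.

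Macrophage-like cells held more Nrp2 UMIs than any other class. It stood at 89.1 CPM (68.8 to 114) in the old library, with 65 UMIs, and at 76.5 CPM (38.2 to 137) in the young library, with 11 UMIs in a class of 11 cells. In lymphatic endothelial-like cells the level was higher, at 345 CPM (178 to 603) from 12 UMIs in 7 old cells and 514 CPM (106 to 1503) from 3 UMIs in 1 young cell. Nrp1 stood at 207 CPM in old and 341 CPM in young macrophage-like cells, or 38.7% and 57.8% of its EC-like level. The endothelial markers stood there at 9.71 to 25.5% (median 15.3%) in the old and 14.1 to 82.2% (median 32.6%) in the young library. Nrp1 was thus above the highest marker in the old library and within the marker range in the young library. In the old library Nrp1 differed between the macrophage-like clusters, with 412 CPM (334 to 504) in the 68 cells led by C1qa, C1qc and Pf4 and 111 CPM (83.5 to 144) in the 81 cells led by Retnla and Lyz2. Pdgfb stood at 20.6 CPM (15 UMIs) in old and 20.9 CPM (3 UMIs) in young macrophage-like cells, and the old value is 99.8% of its EC-like level. Tek, at 15.9% of its EC-like level, and Tie1, at 15.4%, stood close to the marker median in old macrophage-like cells.

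The receptors were also counted per cell at equal depth, where a cell without a UMI is not a cell without the transcript. When each cell was thinned to 3100 UMIs and shallower cells were left out, 1867 old and 991 young EC-like cells remained. Any VEGF receptor was seen in 17.5% of old cells (15.8 to 19.3%) and 14.8% of young cells (12.7 to 17.2%), and without thinning in 28.5% and 30.7%. In subtype A the share was 23.7% in old and 18.9% in young cells, and in subtype B 15.8% in old and 11.7% in young cells. Tek or Tie1 was seen in 87.4% of old cells (85.8 to 88.8%) and 92.6% of young cells (90.8 to 94.2%), and both together in 42.7% and 48.6%. Without thinning these shares were 92.6% and 98.4%, and 64.1% and 82.9%. None of the 10 genes was seen in 2.09% of old and 1.01% of young cells. As background, among the 25 old T, NK or B-like cells of that depth (class median 2326 UMIs) 2 had a VEGF receptor UMI and 5 a TIE receptor UMI. In fibroblast-like cells a VEGF receptor UMI was seen in 1.48% of old and 2.24% of young cells.

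Pairs of these genes were seen in the same cells to differing degrees. Pairs were counted in both orders, and the difference has the same sign in either order. Over 134 combinations of a pair of genes, a subtype and a library, the share of cells with the second gene was 0.741 percentage points higher, at the median, among cells with the first gene than among cells without it (range -12.4 to 19.7). For Tek among cells with Tie1 the difference lay between -4.60 and 3.11 points over the 4 subtypes and libraries. Of the 20 combinations measured in all 4, 4 were above 0 in each and 0 were below 0 in each. They were Tek among cells with Flt1 (1.91 to 15.5 points), Flt1 among cells with Tek (0.81 to 6.47), Nrp1 among cells with Pdgfb (2.58 to 8.54) and Pdgfb among cells with Nrp1 (0.961 to 1.73). These 4 are thus the pair of Tek and Flt1 and the pair of Nrp1 and Pdgfb, each counted in both orders. Such counts were not made over pairs of other genes. These are descriptions of thinned cells, and cells of 1 library are not replicates.

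The other genes of these pathways, 93 in 8 lists, were measured in the same way. In EC-like cells 64 of them had at least 100 UMIs. Of these, 3 were at least 1.5-fold higher in old cells and 6 at least 1.5-fold lower, and the median log2 ratio was -0.05 against 0.06 over all genes. Their shares can be read beside the 5.13% and 4.96% of all genes. Higher were Sema3d, a secreted semaphorin, at 23.2 CPM in old and 7.37 CPM in young cells (log2 1.65, 1.29 to 2.04), Angptl4, an angiopoietin-like lipase inhibitor, at 6.87 and 3.44 CPM (log2 0.997, 0.43 to 1.60), and Plat, which encodes tissue plasminogen activator, at 169 and 93.7 CPM (log2 0.85, 0.74 to 0.96). The log2 ratio of Plat was 0.86 in subtype A and 0.37 in subtype B, where it stood at 200 CPM in old and 155 CPM in young cells.

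The lower genes were Sox18, a SoxF factor of endothelium, Pdgfd, Sema3f and 3 genes of the list of VEGF response and tip cell genes. Of the 7 genes of that list with at least 100 UMIs, 3 (Nr4a2, Nr4a1 and Rcan1) were at least 1.5-fold lower, 1 (Plat) was that much higher, and 3 lay between, among them the Notch ligand gene Dll4 at a log2 ratio of 0.58 (0.36 to 0.81). Sox18 stood at 57.6 CPM in old and 223 CPM in young EC-like cells (log2 -1.96, -2.07 to -1.84), with -1.93 in subtype A and -1.94 in subtype B. The early response genes Nr4a2 and Nr4a1 had log2 ratios of -1.27 (-1.75 to -0.80) and -1.25 (-1.38 to -1.11). Rcan1, which encodes a calcineurin inhibitor, had a ratio of -0.73 (-0.98 to -0.48). Pdgfd, a ligand of the PDGF beta receptor like Pdgfb, stood at 63.4 CPM in old and 99.7 CPM in young cells (log2 -0.65, -0.78 to -0.52), and Sema3f, a semaphorin that binds neuropilin-2, at 78.7 and 122 CPM (log2 -0.63, -0.74 to -0.51). The highest and lowest genes of the other lists stayed within 1.5-fold. They were Figf (VEGF-D) at 0.44 and Vegfc at 0.20 among ligands, Pxn (paxillin) at 0.11 and Slit2 at -0.54 among SLIT and ROBO4 partners, and Ptpn1 at 0.53 and Grb10 at -0.32 in VEGF receptor signalling. Ptprb at -0.23 among TIE partners, Pdgfa at 0.01 in the PDGF family and Ets1 at 0.56 among transcription factors complete the set.

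Several ligands and a receptor were also compared between fibroblast-like and EC-like cells. Figf, a ligand of FLT4, stood at 106 CPM in old and 82.0 CPM in young fibroblast-like cells and at 11.5 and 8.46 CPM in EC-like cells. Vegfc, the other FLT4 ligand, ran the other way, at 14.1 CPM in old and 10.6 CPM in young fibroblast-like cells and at 42.6 and 37.1 CPM in EC-like cells. Slit3, a SLIT ligand, stood at 86.4 CPM in old and 111 CPM in young fibroblast-like cells and at 1.31 and 1.28 CPM in EC-like cells. Angpt2, the angiopoietin that antagonises TEK in many settings, had 2 UMIs in old and 23 UMIs in young fibroblast-like cells and 13 in EC-like cells of each library. Pdgfrb, the receptor for PDGFB that is known from mural cells, stood at 41.6 CPM in old and 52.2 CPM in young EC-like cells. In fibroblast-like cells it stood at 32.7 CPM in old and 57.4 CPM in young cells. These genes were chosen after their values were seen.

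Over 9 units of a class or subtype in a library with at least 20 cells, the genes most like each gene in log2(CPM + 10) were found by Pearson's r, as a description over units that share libraries, depth and endothelial RNA. Tie1 was most like Icam2, Cytl1 and Egfl7 (r 0.997, 0.997 and 0.996), of which Egfl7 is an endothelial marker used to name the cells. Tek was most like Ace, which encodes angiotensin-converting enzyme, Gata6 and Azin1 (0.996, 0.991 and 0.990), and Nrp1 most like Adgra3, Tcn2 and Tle1 (0.990, 0.989 and 0.984). Nrp2 was most like Slamf9, Adgre1 and Clec10a (0.995, 0.990 and 0.987), where Adgre1 is a macrophage marker used to name the cells. Robo4 was most like Tbx1, Coch and Sost (0.984, 0.970 and 0.964), of which Coch and Sost define subtype A. It had only 79 UMIs and ranged over 0.90 log2 units, and its likeness to Coch and Sost restates its subtype difference. For Flt1 these genes were Ift172, Gprin3 and Syn2 (0.986, 0.984 and 0.983), for Flt4 Unc45b, Sorbs2 and Utrn (0.993, 0.992 and 0.986), for Pdgfb Tanc2, E030030I06Rik and Spag1 (0.981, 0.969 and 0.966), and for Vegfa Gm16740, Dlx6 and Heph (0.935, 0.934 and 0.926). Kdr ranged over only 0.66 log2 units, and Fntb, Pla2g4f and Scrn2 (0.942, 0.939 and 0.937) came first.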

How the data were processed

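Per the submitters' processing notes, Cell Ranger and GRCm38 were used by the authors, with no version given in the sources used here. The libraries came from version 2 of a 3′ droplet kit, per the labels' protocols. For 1 old and 1 young library the authors deposited UMI counts, which are whole numbers for each gene in each barcode and carry no normalization.

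Kept were barcodes with 200 or more genes and 10% or less mitochondrial UMIs (72 old and 1 young left out). Scrublet called 6 barcodes in each library (0.255% of cells in all), too few to count as a working doublet filter, and these were removed. After scaling to 10000 UMIs and a log transform, both libraries were clustered as 1 set without the 10 genes and without batch correction (2000 variable genes seen in at least 3 cells, 30 components, 15 neighbours, Leiden resolution 0.5). The tools were scanpy 1.11.5 with igraph 0.11.9, pandas 2.3.3, scipy 1.17.1, numpy 2.4.6 and matplotlib 3.10.9 under Python 3.11.15. A cluster took the name of the class whose markers the largest share of its cells carried, given 3 markers in 25% of cells. It would have stayed unnamed had its 10 leading genes held more markers of a different class.

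The 10 genes, the markers and the 8 pathway lists were chosen with earlier results of these data known, and the lymphatic class and the rule that assigns clusters to subtypes were set after seeing the clusters. Named are all 10 genes, the genes of each list with the highest and lowest ratio, and the 3 genes most like each gene. Other genes were chosen after their values were seen. Protein sequences were not used here. The ratio and interval code was checked on simulated counts for 10067 genes of the EC-like comparison, with 200 changed by known folds. Of the 95% intervals, 95.3% held the true ratio. The simulated class totals had counting error only and no spread between cells or animals. The check is thus of the code and not of how well the intervals suit these data. Alternatives were scaling, filters, doublets, class and subtype definitions, resolution, depth, cell weighting, foreign RNA, lymphatic cells, fold and count minimum.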

Additional observations from a re-analysis of the deposited data

How the results depend on the processing

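No paired analysis was possible because each age has 1 library. Each of the 10 log2 ratios of old over young in EC-like cells was recomputed under up to 13 alternatives, and 105 of 121 values stayed within the interval of the ratio. For subtype ratios between ages 102 of 121 did, and for A over B within a library 88 of 101. In all 28 values had the other sign, of which 22 belonged to ratios whose interval held 0 (all of these for Kdr, Nrp2, Robo4, Flt4 or Tie1). The other 6 came when cells with any macrophage, lymphocyte or erythroid UMI were left out, with 173 old cells remaining. Of these, 3 had UMIs on both sides: Flt1 in subtype A between ages at -0.28, and A over B in the old library at -0.13 for Flt1 and -0.053 for Pdgfb. The other 3 had 0 UMIs in the numerator and are upper bounds from 3 counts, which show no change of sign: Robo4 in EC-like cells at 0.33, and A over B in the old library at 3.12 for Kdr and 0.12 for Vegfa. Over all alternatives the EC-like log2 ratio lay between -0.52 and -0.33 for Tek, -1.47 and -0.58 for Pdgfb, 0.28 and 0.63 for Flt4, 0.12 and 0.44 for Flt1, and -0.22 and 0.74 for Kdr. Genes at least 1.5-fold higher in old EC-like cells numbered 1 (Flt4) in place of 0 with a marker rule on each cell, with equal weight per subtype, and with the lymphatic cells joined. Those lower numbered 2 in place of 1 with equal weight per subtype (Pdgfb and Vegfa) and with at least 20 UMIs (Robo4 and Pdgfb), and 0 at 2-fold. Pathway genes past the fold numbered 9, against 18 without cells with foreign RNA, 4 at 2-fold and 15 with at least 20 UMIs. The cause of these shifts was not tested. Depth limits Kdr, Nrp2 and Robo4, for which 3 counts in old EC-like cells are 0.206 CPM.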

Other observations

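The subtype differences can also be read cell by cell, without clusters, from the UMIs of the 3 genes that define each program. Of EC-like cells, 395 old and 383 young cells held UMIs of Coch, Sost or Adra2a only, and 824 old and 248 young cells held UMIs of Bcan, Isl1 or Frzb only. In the old library Robo4 had 9 UMIs (4.29 CPM) in cells of the first kind and 1 UMI (0.231 CPM) in cells of the second kind, and in the young library 29 UMIs (8.05 CPM) and 0 UMIs. Pdgfb stood at 35.8 CPM against 15.03 CPM in the old library and at 48.6 CPM against 23.6 CPM in the young library. Flt1 stood at 73.0 CPM against 40.9 CPM in the old library and at 44.4 CPM against 23.1 CPM in the young library. Vegfa ran the other way, at 18.1 CPM against 45.1 CPM in the old library and at 13.3 CPM against 82.6 CPM in the young library. Kdr had 6 UMIs (2.86 CPM) against 27 UMIs (6.24 CPM) in the old library. In the young library it had 7 UMIs (1.94 CPM) against 7 UMIs (3.59 CPM). The remaining cells held UMIs of both programs or of neither. In the 871 old cells with both, Pdgfb stood at 19.3 CPM, Flt1 at 35.8 CPM and Vegfa at 33.1 CPM, and in the 345 young ones at 37.8, 32.9 and 51.2 CPM. In the 340 old cells with neither, Pdgfb stood at 21.9 CPM, Flt1 at 48.8 CPM and Vegfa at 33.7 CPM. In the 120 young cells with neither (median 3815 UMIs), Pdgfb stood at 54.3 CPM, Flt1 at 92.9 CPM and Vegfa at 47.3 CPM, so that Pdgfb and Flt1 were above the young cells of the first kind. These cells include the one with 28 Flt1 UMIs, and without it Flt1 stood at 45.4 CPM and Pdgfb at 50.9 CPM in the other 119. Kdr had 8 UMIs (6.74 CPM) in old and 6 UMIs (10.5 CPM) in young cells with neither, above cells of the second kind. In cells with both, Kdr stood at 3.02 CPM in the old and 3.21 CPM in the young library. Old and young cells of each kind had medians of 4271 and 7845 UMIs (first kind) and 4341 and 6675 UMIs (second kind). These values rest on the same cells as the clusters and are no independent check of them.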
